A study of Mus musculus with 42 samples.

Results

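The glutathione peroxidases are a small family of enzymes, and 6 of them are described here among the 18194 genes measured in these newborn mouse lungs: Gpx1, Gpx2, Gpx3, Gpx4, Gpx7 and Gpx8. Gpx5 and Gpx6 were also measured and are not among the 6. Each of the 6 was found where the array annotation gives its symbol as the only symbol of a probe set, which held for 7 of the 34958 probe sets with 1 symbol. Gpx4 had 2 such probe sets and the others 1 each, and the probe set with the highest mean over all arrays stood for each gene. The series compares mice that carry or lack the transcription factor gene Nrf2 (Nfe2l2) in the days after birth, in room air or under hyperoxia, an exposure used in newborn mice as a model of bronchopulmonary dysplasia. RNA of whole lung homogenates from 42 mice, 1 mouse per array, was put on 42 Affymetrix arrays for expression, 3 mice in each of 14 groups. Knockout mice (KO, Nrf-/- in the labels) under O2 were taken at P2, P3 and P4, and KO mice in air at P1, P2, P3 and P4. Wild-type mice (WT, Nrf+/+) under O2 were likewise taken at P2, P3 and P4, and WT mice in air at P1, P2, P3 and P4. P1 is the day of birth, counted as day 0. Hyperoxia was nominally 100% O2 (at least 95%) for 23 h a day over 1, 2 or 3 days, started within the first day of life, and pups of both exposures were kept with foster dams. The deletion was in the whole animal, and no source used here gives strain or sex.

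Glutathione peroxidases reduce hydrogen peroxide and organic hydroperoxides, mostly with electrons from glutathione. GPX1, GPX2, GPX3 and GPX4 carry selenocysteine in the active site, so their synthesis depends on the machinery that reads a stop codon as selenocysteine, whereas GPX7 and GPX8 carry cysteine and reside in the endoplasmic reticulum, where they use peroxide made during oxidative protein folding. GPX1 is the abundant enzyme of cytosol and mitochondria, GPX2 is known from the epithelium of gut and airways, GPX3 is secreted and circulates in plasma, and GPX4 reduces phospholipid hydroperoxides in membranes and restrains ferroptosis. Gpx2 is a known target of NRF2, which is released from its inhibitor KEAP1 under oxidative stress and binds antioxidant response elements in DNA.

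The 6 members lie on different chromosomes of the mouse, Gpx1 on 9, Gpx2 on 12, Gpx3 on 11, Gpx4 on 10, Gpx7 on 4 and Gpx8 on 13. RefSeq promoter windows on GRCm38.p6, running over 250 bases before and 50 bases after a gene's start, matched all 6 by symbol, in 9 windows. The 250 upstream bases of Gpx2 are shown because this gene carries the largest changes of the 6. Beside them are those of Gpx1 and Gpx8, the members nearest to Gpx2 in GC share over the full windows of 300 bases (47% and 45.3%, against 48.3%). This choice was made after their sequences were read. Capitals mark the dinucleotide CG. The Gpx2 stretch lies at chr12:76795555-76795804 on the minus strand, the Gpx1 stretch at chr9:108338830-108339079 on the plus strand and the Gpx8 stretch at chr13:113046389-113046638 on the minus strand.
Gpx2: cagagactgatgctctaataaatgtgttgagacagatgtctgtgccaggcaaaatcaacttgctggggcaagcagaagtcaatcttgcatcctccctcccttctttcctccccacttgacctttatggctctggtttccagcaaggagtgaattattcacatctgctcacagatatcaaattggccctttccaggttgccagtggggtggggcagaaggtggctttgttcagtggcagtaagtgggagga
Gpx1: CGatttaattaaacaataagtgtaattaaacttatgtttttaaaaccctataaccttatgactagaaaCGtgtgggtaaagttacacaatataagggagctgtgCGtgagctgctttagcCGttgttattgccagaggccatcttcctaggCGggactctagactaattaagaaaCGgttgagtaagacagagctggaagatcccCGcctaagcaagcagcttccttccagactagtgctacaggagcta
Gpx8: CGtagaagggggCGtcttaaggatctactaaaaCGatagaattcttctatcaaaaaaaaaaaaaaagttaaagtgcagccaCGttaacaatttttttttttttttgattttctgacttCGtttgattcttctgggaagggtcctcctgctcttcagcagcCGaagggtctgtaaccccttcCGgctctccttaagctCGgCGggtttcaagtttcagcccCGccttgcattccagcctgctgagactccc
The Gpx2 stretch holds 0 CG dinucleotides at 49.2% GC, against 7 in the Gpx1 stretch at 42% GC and 10 in the Gpx8 stretch at 44.8% GC. Over the full window of 300 bases Gpx2 had 0 CG, as had 5.43% of the 32817 promoter windows of the table, whose median was 7. The other 8 member windows held between 3 and 31. Both strands of every window were also searched for 3 motifs, the core of the antioxidant response element written as TGACNNNGC and the forms TGANTCA and TGACNTCA read by AP-1 and CREB-like factors, which partly overlap one another. They were present in 12.4%, 7.81% and 8.84% of all windows, and none of the 9 member windows holds a match to any of them, which says only that these letters are not within these windows.

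The level of the targeted gene followed the labels. Nfe2l2 lay between 4.31 and 5.46 on the log2 scale in KO lungs under O2 and between 4.26 and 5.08 in KO lungs in air, against 10.79 to 11.56 in WT lungs under O2 and 10.32 to 11.16 in WT lungs in air. Lung markers were high on every array (surfactant gene Sftpc at a mean of 14.68, the alveolar type 1 gene Ager at 14.36 and the club cell gene Scgb1a1 at 14.61). Over these genes, array medians lay between 7.52 and 7.75 and 10th percentiles between 4.49 and 4.69. Correlations between arrays of a group ran between 0.959 and 0.997. Some homogenates also carried transcripts of neighbouring tissues. A list of liver, heart, skeletal muscle, thymocyte, fat or squamous epithelium markers stood more than 2 log2 units above its median over the 42 arrays on 0 of 9 KO O2 arrays, 3 of 12 KO air arrays, 4 of 9 WT O2 arrays and 8 of 12 WT air arrays, so results were also computed without these 15 arrays. All values below are RMA values on the log2 scale, differences are log2 differences, and adjusted p-values come from limma with Benjamini-Hochberg adjustment over all 18194 genes, with a gene called at an adjusted p under 0.05. In RNA from whole lung, fewer cells of a type and less RNA per cell cannot be told apart.

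Gpx2 was the member that followed genotype and exposure most closely. Differences between the 14 groups accounted for 98.4% of its variance over the 42 arrays, and its group means spanned 3.82 log2 units. In KO lungs under O2 the 3 mice had 5.92, 6.08 and 6.15 at P2, 6.03, 6.55 and 6.25 at P3, and 7.04, 6.43 and 6.56 at P4. KO lungs in air had 6.60, 6.16 and 6.18 at P1, 6.06, 5.85 and 6.20 at P2, 6.39, 6.11 and 6.13 at P3, and 6.22, 6.28 and 6.20 at P4. Both KO sets therefore occupied the same low range, and the highest of the 21 KO arrays, at P4 under O2, was the only one to enter the range of WT lungs in air. WT lungs under O2 had 8.88, 9.02 and 9.01 at P2, 9.71, 9.51 and 9.73 at P3, and 9.74, 9.81 and 10.03 at P4. WT lungs in air had 7.75, 7.26 and 7.31 at P1, 7.19, 7.02 and 7.60 at P2, 7.45, 7.24 and 7.10 at P3, and 6.97, 7.10 and 7.12 at P4. The 9 WT O2 arrays stood above all 33 others, with a gap between 7.75 and 8.88 that held no array. The share of all genes with such a gap was not computed.

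Ordered by their means, the groups ran from WT O2 at P4 (9.86 ± 0.15, SD, n = 3), P3 (9.65 ± 0.12) and P2 (8.97 ± 0.08) through WT air at P1 (7.44 ± 0.27), P2 (7.27 ± 0.30), P3 (7.26 ± 0.17) and P4 (7.06 ± 0.08) to the KO groups. Among these KO O2 at P4 was highest (6.68 ± 0.32), and KO air at P2 lowest (6.04 ± 0.18). Of the 13 pairs of neighbours in that order, 3 had arrays that did not overlap: the 3 WT O2 groups were separate from each other and from WT air at P1. Arrays of the other 10 neighbouring pairs overlapped. Such overlaps were counted for the 6 members only, so no share over all genes can be set beside them. The values carry no detection call, so the data do not show whether Gpx2 in KO lungs was above the background of its probes.

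**Figure D1:**
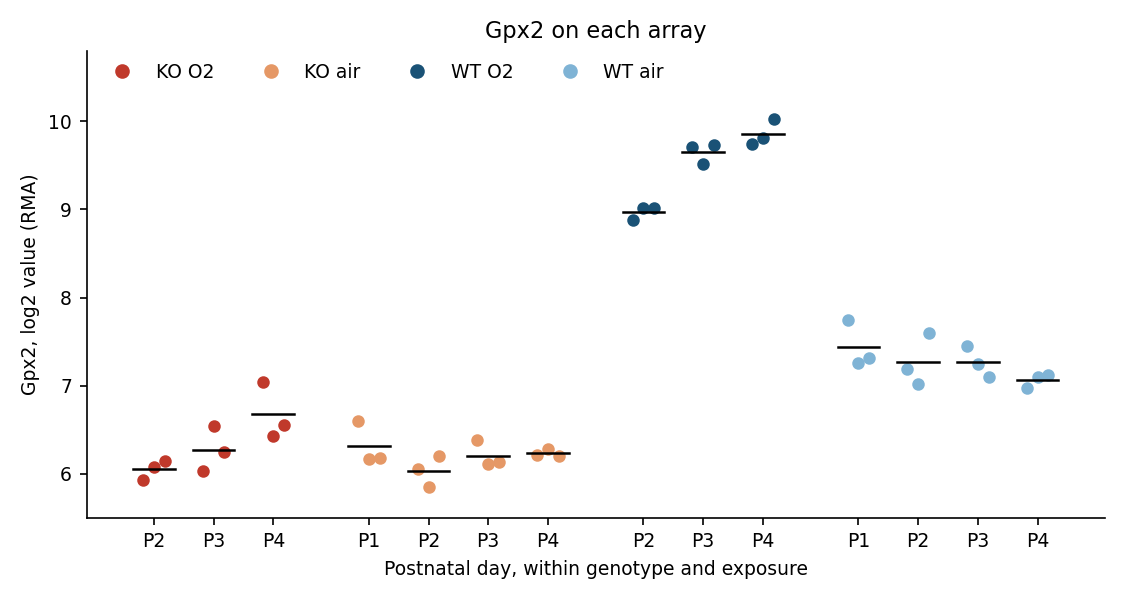
Gpx2 in each of the 42 lungs (1 point per mouse, bar at the group mean, log2 RMA value on the vertical axis) by genotype, exposure and postnatal day. The 9 WT O2 lungs lie between 8.88 and 10.03 and rise with age, while the 9 KO O2 lungs lie between 5.92 and 7.04, with the 12 KO air lungs between 5.85 and 6.60 and the 12 WT air lungs between 6.97 and 7.75.

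In air, Gpx2 was lower in KO lungs. Averaged over P1 to P4 it fell by 1.06 ± 0.08 (SE, 12 arrays against 12, adjusted p = 7.74e-12), a 2.09-fold lower level, and all 12 KO arrays lay below all 12 WT arrays. The difference was −1.13 at P1, −1.24 at P2, −1.06 at P3 and −0.83 at P4, called at each age (adjusted p between 3.49e-06 and 0.00362). With only the arrays of the contrast fitted, the call at P2 was lost (−1.24, adjusted p = 0.167). Among all genes this was the 75th lowest change, in a comparison in which 29% of all genes were called in either direction and 14.4% were called lower in KO, and in which all KO arrays lay below all WT arrays for 0.176% of genes.

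Under O2 the difference was larger. Gpx2 was 8.94-fold lower in KO lungs over P2 to P4 (−3.16 ± 0.09, SE, 9 arrays against 9, adjusted p = 7.29e-23), with −2.92 at P2, −3.38 at P3 and −3.18 at P4. This was the second lowest change of all genes, after Nfe2l2 itself (−6.26) and ahead of the glutathione transferase gene Gsta3 (−2.98). In this comparison 12.5% of all genes were called in either direction and 6.18% called lower, and for 0.467% of genes all KO arrays lay below all WT arrays, as they did for Gpx2.

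Hyperoxia raised Gpx2 in WT lungs by 2.29 ± 0.09 over P2 to P4, a 4.90-fold higher level under O2 than in air (SE, 9 arrays against 9, adjusted p = 9.72e-19). The increase was 1.70 ± 0.16 after 1 day, 2.39 ± 0.16 after 2 days and 2.79 ± 0.16 after 3 days, called at each age. It ranked 5th highest of all genes, after the death receptor gene Eda2r (3.53), Ptgs2 (2.60), Saa3 (2.43) and Ccl2 (2.42). In KO lungs the difference over P2 to P4 was 0.18 ± 0.09 (95% interval −0.01 to 0.36, adjusted p = 0.181), with 0.02 at P2 and 0.07 at P3 (adjusted p = 0.969 and 0.867). At P4 KO lungs under O2 stood above KO lungs in air by 0.44 ± 0.16 (adjusted p = 0.0269), with 7.04, 6.43 and 6.56 under O2 against 6.22, 6.28 and 6.20 in air. That last call was fragile. Without the highest KO O2 array the difference was 0.26 and not called (adjusted p = 0.245). The call was also lost with only the arrays of the contrast (adjusted p = 0.0583) and without KO air replicate 1 or 3 at P4 (adjusted p = 0.0642 and 0.0697).

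The test of the difference between the genotypes in their response to O2 gave −2.12 ± 0.13 over P2 to P4 (adjusted p = 6.44e-13), that is, a response 4.34-fold smaller in KO lungs. It was −1.68 ± 0.22 at P2, −2.32 ± 0.22 at P3 and −2.35 ± 0.22 at P4, each called. Of all genes 1.19% were called in this test and 0.511% called lower, and Gpx2 had the fourth lowest value, after the lymphocyte genes Rag1 (−2.85 ± 0.69), Trbv1 (−2.52 ± 0.56) and Ccr9 (−2.29 ± 0.54). The thymocyte list stood high on KO air P2 replicates 1 and 3, and its part in the values of these lymphocyte genes was not tested. All these comparisons share arrays: the WT O2 mice enter the genotype difference under O2, the exposure difference in WT and the test between the genotypes. With the 15 arrays high in neighbouring tissues left out, Gpx2 was −3.13 for KO against WT under O2, 2.48 for O2 against air in WT and −2.24 for the difference between genotypes, the last 2 over the ages that every group kept, and it was also called lower in KO air (adjusted p between 1.86e-13 and 3.1e-05).

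Gpx2 was not called with age in air. P4 lungs stood below P1 lungs by 0.08 in KO (−0.08 ± 0.16, adjusted p = 0.765) and by 0.38 in WT (−0.38 ± 0.16, adjusted p = 0.0828). Under O2 it was higher at P4 than at P2 in both genotypes, by 0.63 ± 0.16 in KO (adjusted p = 0.00191) and by 0.89 ± 0.16 in WT (adjusted p = 6.45e-05). In that contrast age and length of exposure cannot be told apart.

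The other 5 members moved within narrower limits. Their group means spanned 1.41 log2 units for Gpx3, 0.84 for Gpx8, 0.81 for Gpx7, 0.56 for Gpx1 and 0.53 for Gpx4, and differences between groups accounted for 88.8% of the variance of Gpx8, 84.2% of Gpx4, 80.4% of Gpx7, 70.3% of Gpx1 and 59.4% of Gpx3. When the 14 groups were ordered by mean, all 13 neighbouring pairs overlapped for Gpx1 and for Gpx4, 12 for Gpx3, and 11 each for Gpx7 and Gpx8. These counts were not made over all genes, so they are not read as a trait of the members. Gpx1 was highest in WT O2 at P4 (13.34 ± 0.10) and lowest in KO air at P4 (12.78 ± 0.24). Gpx3 was highest in WT air at P1 (12.53 ± 0.41) and lowest in KO air at P4 (11.12 ± 0.19). Gpx4 had both ends in KO air, with 12.20 ± 0.11 at P4 and 12.73 ± 0.07 at P1. Gpx7 was highest in WT air at P4 (9.86 ± 0.10) and lowest in KO O2 at P4 (9.05 ± 0.27), and Gpx8 highest in KO O2 at P4 (10.67 ± 0.08) and lowest in KO air at P2 (9.84 ± 0.21). Levels of different genes come from different probe sets and are not compared with one another.

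**Figure D2:**
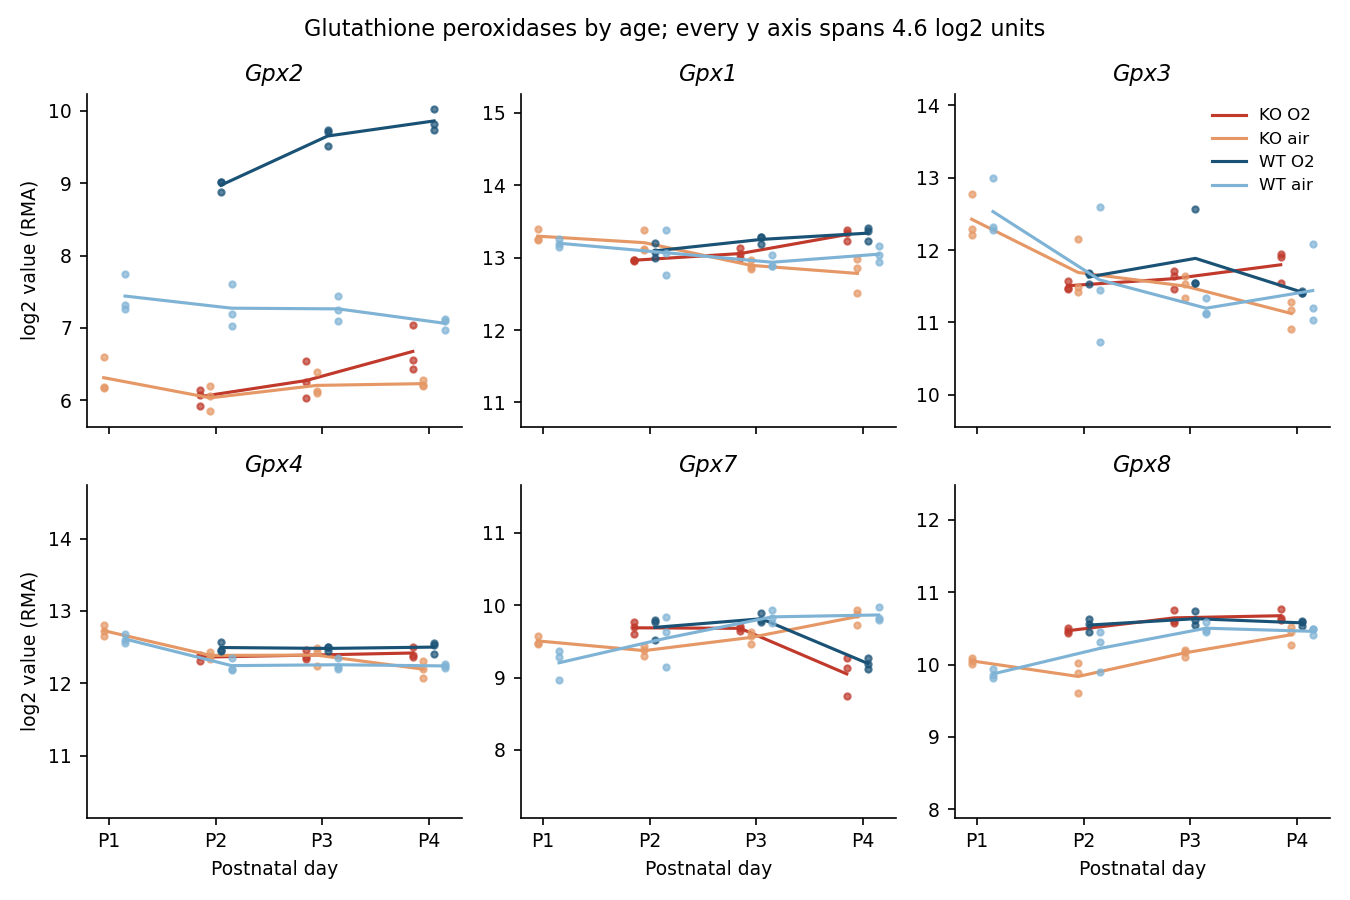
Group means of the 6 members against postnatal day, 1 panel per gene, with the single mice as points (log2 RMA value; every vertical axis spans the same number of log2 units, so slopes can be compared between panels but heights cannot). For Gpx2, whose group means span 3.82 log2 units, the WT O2 line lies highest, the WT air line below it and both KO lines lowest and close to each other. The 4 lines stay close together for Gpx1 and Gpx4, whose group means span 0.56 and 0.53.

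Between genotypes the other 5 members differed by at most 0.15 in the mean contrasts. In air 2 of the 6 members were called lower in KO (Gpx2 and Gpx8) and 0 higher, where 14.4% and 14.5% of all genes were called in those directions. Under O2, Gpx2 was the 1 member called lower and 0 were higher, against 6.18% and 6.3% of all genes. Among the selenoproteins the KO minus WT difference under O2 was −0.12 for Gpx1 (95% interval −0.24 to 0.01), −0.01 for Gpx3 (−0.36 to 0.35) and −0.10 for Gpx4 (−0.18 to −0.02, adjusted p = 0.0817), and in air it was −0.02 for Gpx1 (−0.13 to 0.09), 0.00 for Gpx3 (−0.31 to 0.30) and 0.09 for Gpx4 (0.02 to 0.16, adjusted p = 0.054). Gpx4 lay close to the threshold in both directions. Its value under O2 was called after cyclic loess (−0.12, adjusted p = 0.0236) and by its other probe set (−0.12, adjusted p = 0.029), and its value in air after cyclic loess (0.10, adjusted p = 0.0102) but not by its other probe set (0.04, adjusted p = 0.347).

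Of the 2 members of the endoplasmic reticulum, Gpx7 differed by −0.09 under O2 (−0.24 to 0.05) and −0.04 in air (−0.17 to 0.08). Gpx8 fell in KO air lungs by 0.15 ± 0.05 (adjusted p = 0.0226), and its differences by age did not run one way. They were 0.18 at P1 (adjusted p = 0.269), −0.39 at P2 (adjusted p = 0.00756), −0.34 at P3 (adjusted p = 0.0112) and −0.05 at P4. At P2 the KO arrays had 9.60, 9.89 and 10.02, against 10.45, 9.89 and 10.32 on WT arrays, which overlap, and at P3 they had 10.18, 10.11 and 10.20, against 10.58, 10.48 and 10.45, which do not (all KO arrays lay below for 21.6% of genes). The P2 call was lost with only the arrays of the contrast (adjusted p = 0.433), with tissue scores as covariates (−0.16, adjusted p = 0.664), without KO air replicate 1 (−0.27, adjusted p = 0.0982) and without WT air replicate 1 (−0.27, adjusted p = 0.0806). The P3 call was lost without WT air replicate 1 (−0.30, adjusted p = 0.0617). The call over all ages was lost with only the arrays of the contrast (adjusted p = 0.0689), with tissue scores as covariates (−0.06, adjusted p = 0.551), without the arrays high in other tissues (−0.06, adjusted p = 0.46) and without WT air P2 replicate 1 (−0.12, adjusted p = 0.0517). The part of other tissues in it was not tested further.

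Over P2 to P4 hyperoxia changed 1 member in KO lungs and 4 in WT lungs. In KO lungs, Gpx8 was the 1 member called higher over P2 to P4 and 0 were lower, where 13.5% and 7.28% of all genes were called. In WT lungs 4 members were higher (Gpx1, Gpx2, Gpx4 and Gpx8) and 0 lower, against 14.4% and 9.53% of all genes. Gpx7, at −0.18 in WT (adjusted p = 0.0635), was called lower after cyclic loess, with array weights and among the upper 60 percent of genes (adjusted p between 0.0119 and 0.0433). It was also called without the arrays high in other tissues (−0.35, adjusted p = 0.032) and without WT air P2 replicate 2 (−0.25, adjusted p = 0.00374). Arrays of O2 and air did not overlap in WT for 2 of the 6, Gpx2 and Gpx4, both higher under O2, against 0.726% of all genes. For the mean over P2 to P4 the difference between genotypes in the response was called for Gpx2 and not for the other 5, where 1.19% of all genes were called. After cyclic loess 49.9% of the genes called in KO lungs were higher under O2, against 65.0% with the values as deposited.

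Gpx4, the phospholipid hydroperoxide peroxidase, lay between 12.41 and 12.57 on the 9 WT O2 arrays, against 12.19 to 12.36 on the 9 WT air arrays of P2 to P4. It rose by 0.25 ± 0.04 (adjusted p = 1.4e-05), and by 0.18 on its other probe set (adjusted p = 0.00044). Its increase in WT was 0.25, 0.23 and 0.26 at P2, P3 and P4. The calls at P2 and P3 were each lost with any of 5 of the 6 arrays left out (adjusted p up to 0.116 and 0.196). On its other probe set the increase was 0.21, 0.16 and 0.17, called at none of these ages (adjusted p = 0.0624, 0.163 and 0.0509). In KO lungs Gpx4 differed by −0.02, 0.00 and 0.22 at P2, P3 and P4, called at P4 (adjusted p = 0.0108) and not over P2 to P4 (0.07, adjusted p = 0.267). Its other probe set was also called in KO at P4 (0.21, adjusted p = 0.0116). The KO call at P4 was lost with only the arrays of the contrast (adjusted p = 0.137), without KO O2 replicate 1 (0.18, adjusted p = 0.0709) and without KO air replicate 2 (0.17, adjusted p = 0.0889). The difference between genotypes for Gpx4, −0.18 (−0.29 to −0.07), was not called (adjusted p = 0.0988), but was after cyclic loess (−0.21, adjusted p = 0.0184), with array weights (−0.19, adjusted p = 0.0151) and without KO air P3 replicate 1 (−0.20, adjusted p = 0.0451). With the arrays high in other tissues left out, the increase in WT was 0.23 and no longer called (adjusted p = 0.0555).

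Gpx1 was called higher under O2 at P4 in both genotypes. KO lungs had 13.22, 13.34 and 13.39 under O2 at that age, against 12.97, 12.52 and 12.85 in air, a rise of 0.54 ± 0.11 (adjusted p = 0.00019). WT lungs had 13.23, 13.41 and 13.37 under O2, against 12.94, 13.04 and 13.16 in air, a rise of 0.29 ± 0.11 (adjusted p = 0.0404). All O2 arrays lay above all air arrays in both genotypes, as they did for 24.4% of all genes in KO and 21.7% in WT, and the difference between the genotypes at P4 was not called (0.25, −0.06 to 0.55, adjusted p = 0.454). The WT call was lost without WT air replicate 1 or 2 or WT O2 replicate 2 or 3 at P4 (adjusted p between 0.09 and 0.164) and with tissue scores as covariates (0.21, adjusted p = 0.117). Over P2 to P4 Gpx1 changed by 0.15 in KO (adjusted p = 0.0806) and by 0.21 in WT (adjusted p = 0.0108). In WT at P3 it had 13.19, 13.28 and 13.28 under O2, against 13.04, 12.89 and 12.88 in air. That difference was not called, though it ranked higher among all genes than the one at P4 (1304th against 2720th highest). It was called in 3 of 10 other settings. In KO at P2 the mean was lower under O2 (12.96, against 13.21 in air), and this was not called.

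Gpx8 had the largest change of the 6 members in KO lungs over P2 to P4. Under O2 it had 10.44, 10.46 and 10.50 at P2, 10.60, 10.58 and 10.75 at P3, and 10.76, 10.65 and 10.61 at P4, against 9.60, 9.89 and 10.02, then 10.18, 10.11 and 10.20, then 10.52, 10.26 and 10.45 in air. All O2 arrays lay above all air arrays at each of the 3 ages (11.7%, 20.8% and 24.4% of all genes at P2, P3 and P4), and the rise was 0.63 ± 0.10 at P2, 0.48 ± 0.10 at P3 and 0.26 ± 0.10 at P4 (adjusted p = 0.000143, 0.00103 and 0.0389), or 0.46 ± 0.06 over the ages (adjusted p = 3.03e-07). In WT lungs Gpx8 rose by 0.19 ± 0.06 over the ages (adjusted p = 0.0118). The difference between genotypes was 0.27 ± 0.08 (95% interval 0.11 to 0.43) and was not called (adjusted p = 0.0847), but it was called with array weights (0.21, adjusted p = 0.0362), without WT air P2 replicate 2 (0.32, adjusted p = 0.00803) and without KO air P2 replicate 3 (0.30, adjusted p = 0.0481). With the arrays high in other tissues left out, the rise in WT was 0.08 (adjusted p = 0.628). The call of the P2 rise in KO was lost with tissue scores as covariates (0.40, adjusted p = 0.328) and with only the arrays of the contrast (adjusted p = 0.143). The call at P4 in KO was lost with only the arrays of the contrast (adjusted p = 0.0981) and with array weights (0.20, adjusted p = 0.0536). It was also lost without KO O2 replicate 1 or 2 (0.22 and 0.28, adjusted p = 0.151 and 0.0674) and without KO air replicate 2 or 3 (0.19 and 0.28, adjusted p = 0.198 and 0.0572).

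Gpx7, the other cysteine enzyme of the endoplasmic reticulum, fell after 3 days of O2. At P4 it had 9.13, 8.75 and 9.28 in KO lungs under O2, against 9.93, 9.72 and 9.88 in KO lungs in air. WT lungs had 9.19, 9.28 and 9.11 under O2, against 9.82, 9.79 and 9.98 in air. All O2 arrays lay below all air arrays in both genotypes (17% of all genes in KO and 23% in WT), the fall was 0.79 ± 0.12 in KO and 0.67 ± 0.12 in WT (log2 differences of −0.79 and −0.67, adjusted p = 7.43e-06 and 8.79e-05), and the genotypes were not shown to differ (−0.12, −0.48 to 0.24, adjusted p = 0.782). No alternative or left-out array changed these calls. At P2 and P3 the differences were 0.31 and 0.13 in KO and 0.15 and −0.03 in WT, none of them called. Over both genotypes Gpx7 was thus the 1 member that hyperoxia lowered at P4, where in KO 4 members were higher (Gpx1, Gpx2, Gpx4 and Gpx8) and 1 lower, against 17% and 14.7% of all genes, and in WT 3 were higher (Gpx1, Gpx2 and Gpx4) and 1 lower, against 15% and 12.5%. Among these calls those of Gpx2, Gpx4 and Gpx8 in KO and of Gpx1 in WT were lost with single arrays left out, as given with each gene. The Gpx4 call in WT was not made by its other probe set (adjusted p = 0.0509). Under O2 Gpx7 was lower at P4 than at P2 by 0.64 in KO and 0.50 in WT (−0.64 and −0.50, adjusted p = 0.000139 and 0.00316).

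Gpx3, the plasma enzyme, varied most between mice of a group, with a within-group SD of 0.39, against 0.08 to 0.20 for the others. It was called in no mean contrast of genotype or exposure with the values as deposited, though O2 minus air was called in KO without the arrays high in other tissues (0.29, adjusted p = 0.0322) and in WT with tissue scores as covariates (0.36, adjusted p = 0.00649) and without WT air P2 replicate 1 (0.40, adjusted p = 0.0464). At P3 WT lungs had 11.88 ± 0.59 under O2 and 11.20 ± 0.12 in air (SD), a difference that ranked 278th highest of all genes and was not called. At P4 the O2 minus air difference was 0.67 in KO (0.06 to 1.29, adjusted p = 0.0901) and −0.02 in WT (−0.64 to 0.60). The KO value was called with only the arrays of the contrast, with tissue scores as covariates and without arrays high in other tissues (adjusted p between 0.000519 and 0.00783). Singled out after its values were seen, Gpx3 was the highest of its group on KO air P2 replicate 3 (12.16, against 11.42 and 11.49), WT O2 P3 replicate 1 (12.57, against 11.55 and 11.54), WT air P1 replicate 1 (13.00, against 12.27 and 12.32), WT air P2 replicate 1 (12.60, against 10.72 and 11.44) and WT air P4 replicate 3 (12.09, against 11.04 and 11.20). On these arrays the heart marker list of 12 genes stood 1.58, 3.06, 3.18, 2.43 and 1.90 above its median over all arrays, the highest in each of these groups. On KO air P2 replicate 3 the liver, skeletal muscle and thymocyte lists stood more than 2 log2 units above their medians, and on WT air P4 replicate 3 the liver list did. Gpx3 was also highest of its group on KO air P1 replicate 3 (12.77, against 12.21 and 12.29), where none of the tissue lists stood so high. Over all arrays the heart list ran from −1.11 to 0.41 in KO O2, −1.11 to 1.58 in KO air, −0.87 to 3.06 in WT O2 and −0.30 to 3.18 in WT air. Its part in the Gpx3 values was not tested beyond the settings given here.

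**Figure D3:**
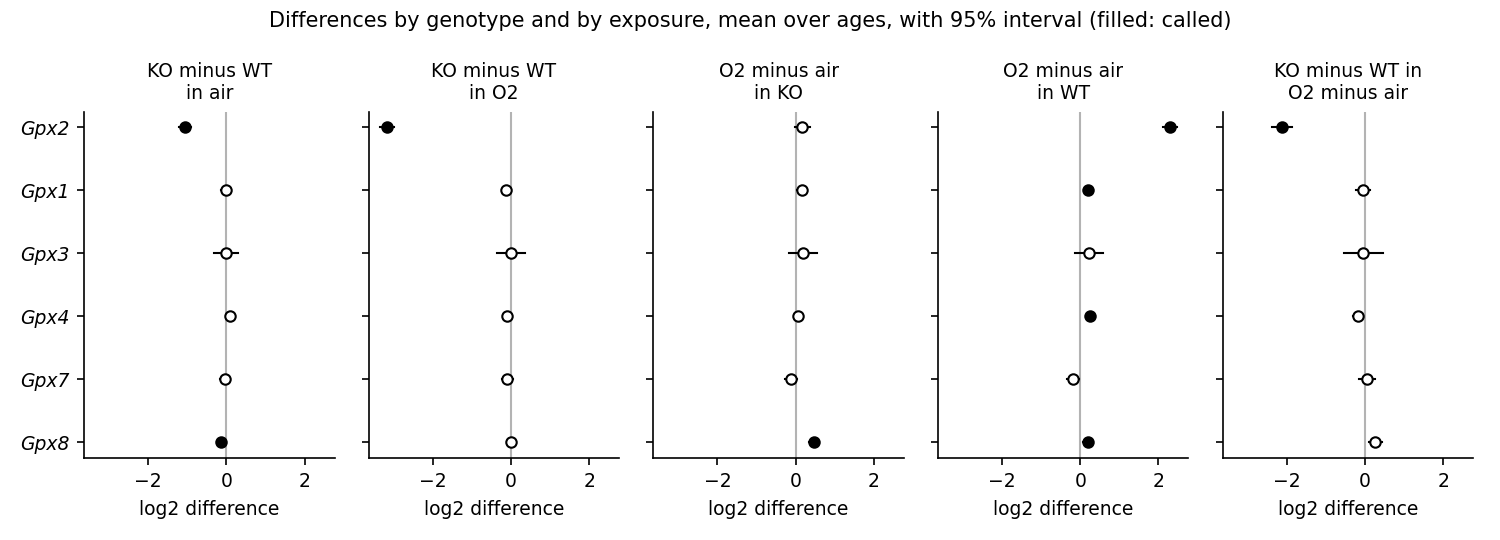
Log2 differences of the 6 members in 5 contrasts (KO minus WT in air and under O2, O2 minus air in KO and in WT, and the difference between genotypes in the O2 response), with 95% intervals from limma; filled symbols were called at an adjusted p under 0.05. Gpx2 reaches −3.16 for KO minus WT under O2 and 2.29 for O2 minus air in WT, while every value of the other 5 members lies between −0.18 and 0.46.

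Between P1 and P4 in air, members fell and rose in both genotypes. In KO 1 member was higher at P4 (Gpx8) and 3 were lower (Gpx1, Gpx3 and Gpx4), against 8.09% and 13.5% of all genes. In WT 2 were higher (Gpx7 and Gpx8) and 2 lower (Gpx3 and Gpx4), against 11.2% and 11.3%. The difference between genotypes in the age change was called for 0 of 6 members and 0.0275% of all genes. After cyclic loess 51.3% of genes called in KO were higher at P4, against 37.4% with the values as deposited. The direction of every change of a member called in KO or WT was the same after loess.

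Gpx3 was lower at P4 by 1.30 ± 0.30 in KO (−1.30, adjusted p = 0.00193), with 11.17, 10.91 and 11.29 at P4, against 12.21, 12.29 and 12.77 at P1. In WT it was lower by 1.09 ± 0.30 (−1.09, adjusted p = 0.00781), with 11.04, 11.20 and 12.09 at P4, against 13.00, 12.27 and 12.32 at P1. All P4 arrays lay below all P1 arrays in both genotypes (23.6% of all genes in KO and 18.8% in WT), but the WT call was lost without WT air P1 replicate 1 (−0.86, adjusted p = 0.0657) or P4 replicate 1 (−0.89, adjusted p = 0.0633). Gpx4 was lower at P4 by 0.53 in KO, with 12.30, 12.08 and 12.20 at P4, against 12.66, 12.72 and 12.81 at P1 (−0.53 ± 0.07, adjusted p = 6.71e-07). In WT Gpx4 was lower by 0.37, with 12.21, 12.24 and 12.27, against 12.69, 12.56 and 12.59 (−0.37 ± 0.07, adjusted p = 0.000102). Its other probe set gave −0.48 and −0.30, both called. Gpx1 differed by −0.51 ± 0.11 in KO (adjusted p = 0.000567) and −0.15 ± 0.11 in WT (adjusted p = 0.377), and the difference between them, −0.36 (−0.67 to −0.06), was not called (adjusted p = 0.388).

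The cysteine enzymes ran the other way with age. In KO Gpx7 was 9.93, 9.72 and 9.88 at P4, against 9.58, 9.48 and 9.46 at P1, a difference of 0.34 ± 0.12 just short of the threshold (adjusted p = 0.0504) and past it in 7 other settings. In WT it was higher at P4 by 0.66 ± 0.12 (adjusted p = 0.00015), with 9.82, 9.79 and 9.98 at P4, against 8.96, 9.37 and 9.28 at P1. Gpx8 rose by 0.36 ± 0.10 in KO (adjusted p = 0.00717, but 0.0502 without KO air P4 replicate 1) and by 0.59 ± 0.10 in WT (adjusted p = 2.95e-05). The pan epithelial markers fell over the same days, 9 of 10 in KO (median −0.75) and 10 of 10 in WT (median −0.73), while of 12 fibroblast and smooth muscle markers 5 rose in KO and 6 in WT and 0 fell. The part of these cell types in the members' changes with age was not tested.

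Whether Gpx2 changed by a different amount than each other member was tested on the difference between the 2 genes per array, with labels permuted exactly within each age, over 5 pairs in 4 contrasts (two-sided, Benjamini-Hochberg over the 20). Relative to the other 5, Gpx2 was lower in KO air lungs, by −0.92 (against Gpx8) to −1.15 (against Gpx4), with exact permutation adjusted p = 6.25e-05 for 4 of the pairs and 0.000333 against Gpx3. Under O2 the difference between KO and WT ran from −3.04 (against Gpx1) to −3.17 (against Gpx8), and in WT lungs it rose under O2 by 2.05 (against Gpx4) to 2.48 (against Gpx7) more than the others, each with the smallest exact permutation p that 9 arrays against 9 allow (p = 0.00025, adjusted p = 0.000333). In KO lungs the response of Gpx2 to O2 exceeded that of Gpx1 by 0.02, of Gpx4 by 0.11 and of Gpx7 by 0.29, and fell short of those of Gpx3 and Gpx8 (−0.02 and −0.28), with exact permutation adjusted p between 0.0625 and 0.85. With the arrays high in other tissues left out, the differences in WT under O2 were 2.14 to 2.82, but that design allows no exact permutation p below 0.111.

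The genes around the peroxidase reaction were counted from lists chosen with results of these data known. Over all genes, the shares called were 6.18% lower and 6.3% higher for KO against WT under O2, and 14.4% and 14.5% in air. They were 7.28% lower and 13.5% higher for O2 against air in KO, 9.53% and 14.4% for O2 against air in WT. The share was 1.19% in either direction for the difference between genotypes in the response. Of 16 genes of glutathione synthesis and recycling, which supply and regenerate the reductant, 8 were lower and 1 higher in KO under O2 (median −0.30, against 0.01 for all genes), and 6 lower and 2 higher in KO in air (median −0.08). Under O2 9 rose and 0 fell in KO (median 0.23), and 11 rose and 0 fell in WT (median 0.51), with the response lower in KO for 7. Named members were the thioredoxin reductase gene Txnrd1 (−1.25 in KO under O2, 1.04 for O2 in WT), Gclc of the first step of glutathione synthesis (−1.30 and 1.37), Gss of the second step (−0.53 and 0.73) and Pgd of the pentose phosphate pathway (−0.68 in KO under O2). Slc3a2, a subunit of the cystine carrier, rose under O2 by 0.68 in KO and 0.76 in WT. Among 16 known NRF2 targets, 6 of which the list above or the genes most like Gpx2 also hold, 15 were lower in KO under O2 (median −0.95) and 12 in air (median −0.40). Under O2 6 rose and 2 fell in KO (median 0.14) and 15 rose in WT (median 0.73), among them Ephx1 (1.25 in KO and 1.41 in WT) and the sulfiredoxin gene Srxn1 (1.57 in WT, with a difference of −1.42 between KO and WT in the response).

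Of 9 other peroxidase genes measured (catalase, peroxiredoxins, microsomal glutathione transferases and Gpx6 among them), 1 rose under O2 and 2 fell in KO (Prdx3 0.20; Mgst2 −0.40 and Prdx2 −0.22), and 0 rose and 3 fell in WT (Mgst2 −0.46, Prdx2 −0.29 and Prdx4 −0.15). Against WT, 3 were lower in KO under O2 (Mgst1 −0.60, Cat −0.39 and Mgst3 −0.28) and 5 in air. Of 18 other selenoproteins, Txnrd1 was the 1 gene called between genotypes under O2. Those called in air included Txnrd1 (−0.47), Selenom (−0.37), Selenoi (−0.23) and Selenon (0.29). Of 10 genes for the incorporation of selenocysteine 0 were called between genotypes under O2 and 1 in air (Scly, 0.21). The lipid peroxidation and ferroptosis list, which surrounds Gpx4, had 6 of 12 genes higher and 0 lower under O2 in each genotype, with Sat1 at 0.60 in KO and 0.70 in WT and Acsl4 at 0.50 and 0.39. The endoplasmic reticulum folding list, which surrounds Gpx7 and Gpx8, had 5 of 12 higher and 0 lower under O2 in KO (median 0.10), against 1 higher and 8 lower in WT (median −0.19), and 4 passed the test between genotypes (Pdia6 0.50, Calr 0.39, Hspa5 0.38 and Pdia3 0.30).

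Markers of other cells moved with some of the same contrasts. Of 12 macrophage markers 5 were lower in KO under O2 and 7 in air, and 7 rose under O2 in KO and 9 in WT (1 fell). Their score, the mean deviation of the markers from their own means relative to the median array, ran from −0.37 to 0.64 in KO O2, −0.74 to −0.14 in KO air, 0.02 to 0.81 in WT O2 and −0.29 to 0.32 in WT air. Of 10 pan epithelial markers 0 were called between genotypes under O2 and 2 were higher in KO air, and 8 rose under O2 in KO and 7 in WT, with ranges of −0.09 to 0.62, −0.63 to 0.55, −0.33 to 0.74 and −0.51 to 0.77 in KO O2, KO air, WT O2 and WT air. For both lists 0 genes were called for the difference between genotypes in the response to O2, where 1.19% of all genes were called. The club cell score had a median of −0.29 in KO O2 (−2.06 to 0.18) and −0.21 in KO air (−0.86 to 0.41). In WT O2 it was 0.25 (−1.28 to 0.60) and in WT air 0.25 (−0.03 to 0.70). For the ciliated cell score the medians were 0.10 in KO O2, −0.13 in KO air, 0.11 in WT O2 and 0.10 in WT air. Liver markers were lower in KO air for 10 of 11 (median −2.24). The part of these cells in the values of Gpx2 was not tested beyond the settings without such arrays or with tissue scores as covariates.

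Genes whose pattern was most like that of a member were sought by Pearson's r over the 42 arrays, which fall into the groups of the design, so that r mostly describes group differences and carries no test. Closest to Gpx2 were Creg1 (0.915), Txnrd1 (0.911), Pgd (0.906), Aox1 (0.904), Me1 (0.888) and Trim30d (0.875), and the lowest r were those of Ulk1 (−0.795), Dcaf17 (−0.778) and Klc4 (−0.772). Within the 21 KO arrays r was 0.358 for Creg1, 0.415 for Txnrd1, 0.574 for Pgd, 0.491 for Aox1, 0.566 for Me1 and 0.143 for Trim30d, against 0.920, 0.910, 0.849, 0.828, 0.849 and 0.743 within the 21 WT arrays. All 6 were lower in KO under O2 (Creg1 −0.88, Txnrd1 −1.25, Pgd −0.68, Aox1 −2.11, Me1 −0.96 and Trim30d −1.11) and higher under O2 in WT (0.79, 1.04, 0.53, 0.91, 0.57 and 0.39 in that order), all smaller than the Gpx2 values in both contrasts. Of all genes 6.18% were called lower in the first contrast and 14.4% higher in the second. As the 6 were picked by r on the same arrays, their shared directions follow largely from that choice and are no separate result. Under O2 in KO Creg1, Txnrd1 and Pgd rose (0.26, 0.23 and 0.23), and Aox1, Me1 and Trim30d had 0.08, 0.13 and −0.11 without a call.

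**Figure D4:**
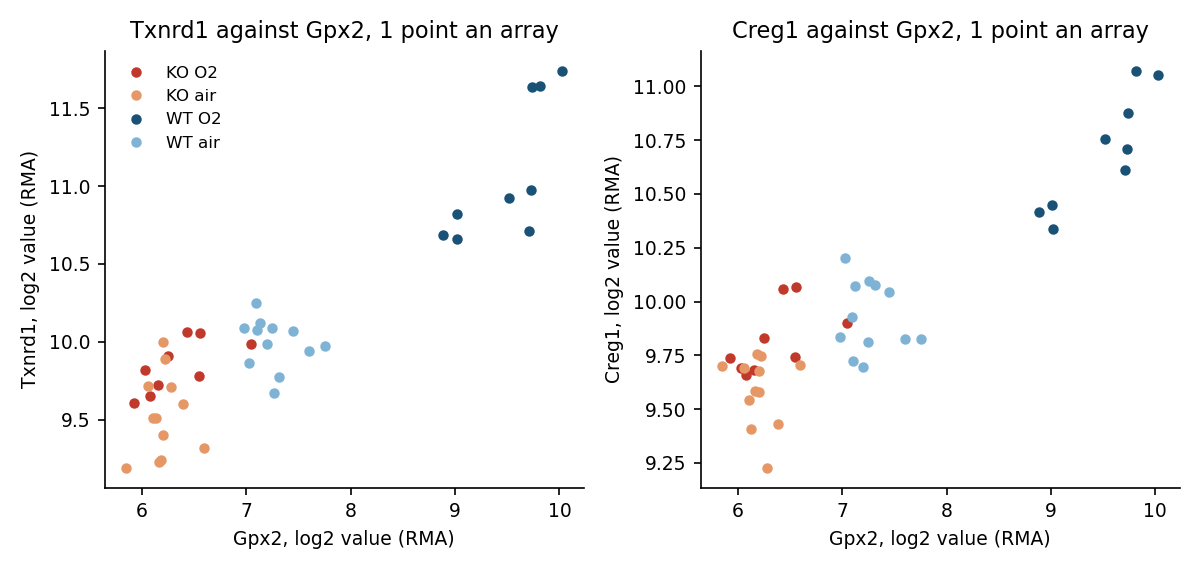
Log2 values of Txnrd1 and Creg1 (vertical axes) against Gpx2 (horizontal axis), 1 point per array, coloured by genotype and exposure. Over the 42 arrays r is 0.911 for Txnrd1 and 0.915 for Creg1, and the WT O2 arrays form a separate set on the right, at 8.88 or higher on the Gpx2 axis.

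The other members had different neighbours. Gpx1 was most like Ero1a (0.773), an oxidase of the endoplasmic reticulum, Atp6v0b (0.759) and Polr1c (0.758), Gpx3 most like Usp20 (0.809), Nudt8 (0.806) and Smoc2 (0.790), and Gpx4 most like Bspry (0.866), Chmp2a (0.838) and Prkcz (0.836). Gpx7 was closest to Tmem132a (0.923), Copz2 (0.899) and Fkbp7 (0.891), and Gpx8 to the collagen-processing genes Pcolce (0.885) and Plod2 (0.878) and to Tubb6 (0.875). Among the members themselves r was highest for Gpx3 with Gpx4 (0.655) and Gpx1 with Gpx4 (0.605) and lowest for Gpx1 with Gpx7 (−0.566). With the other 5 members Gpx2 had r between −0.04 and 0.38.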

How the data were processed

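Lungs of 42 newborn mice were measured, 1 mouse per array, in 14 groups of 3 taken from the sample titles. The authors deposited 1 log2 value per probe set and array. GCOS and RMA are named in the submitters' processing notes, with no versions or settings. The values carry no detection call, and arrays differed in their median over the genes kept (7.52 to 7.75). The values were used as deposited. Of 45101 probe sets 34958 carry 1 symbol, 932 several and 9211 none; the probe set with the highest mean stood for each of 18194 genes. One model with 14 group means was fitted to all arrays with limma 3.58.1 (lmFit, contrasts.fit, eBayes) in R 4.3.3 with data.table (version 1.17.8), with 28 residual degrees of freedom, 32 contrasts, two-sided p-values and Benjamini-Hochberg adjustment over all genes, called under 0.05. Mean contrasts average P1 to P4 in air or P2 to P4 otherwise. Errors are SE of the fit or SD of a group, and the number of arrays limits the precision. Permutation tests, promoter searches and figures used Python 3.11.15 with pandas 2.3.3, numpy 2.4.6 and matplotlib 3.10.9.

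The 24 gene lists hold 294 genes, 278 of them measured; those of pathways and cell types not described here served only the tissue scores and the choice of arrays. The score of a list on an array is how far its members lie, on average, from their own means, relative to the median array. Named are the 6 members, Nfe2l2, the 6 genes most and 3 least like Gpx2, the 3 most like each other member, and up to 4 called genes of smallest p per pathway list and contrast, predicted genes passed over; genes that outrank Gpx2 were named after their values were seen. Members and lists were chosen with earlier results of these data known.

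Alternatives were cyclic loess, array weights, robust variances with an intensity trend, the upper 60 percent of genes, averaging a gene's probe sets, testing each probe set by itself, fitting only a contrast's arrays, a block for the replicate number, tissue scores as covariates, leaving out arrays high in other tissues (over the ages left where an age was lost, chosen after seeing the data) and leaving out each array in turn. The replicate numbers pair no animals by the labels. Tested on simulated data for 18194 genes, the fit recovered 52%, 96%, 98% and 100% of genes changed by 0.25, 0.5, 1 and 2 log2 units for KO against WT under O2, with 8 false calls, and 64%, 90%, 100% and 100% for O2 against air in WT, with 9. The simulated noise was normal, independent between genes and of each gene's within-group spread. Only 50 genes were changed at each size and all others kept level, whereas 2270 and 4356 genes were called in these contrasts. The adjustment depends on that share, so the recovered shares need not hold for the measured data. Arrays high in other tissues were not simulated, so these shares do not describe their effect. Promoter windows came from RefSeq on GRCm38.p6; protein sequences and dates of hybridisation were not used here.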

Additional observations from a re-analysis of the deposited data

Results flagged for a closer look

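The response of Gpx2 to hyperoxia differed between the genotypes by a direct test of that difference, which is why it is listed here. The O2 minus air difference in KO minus that in WT was −2.12 ± 0.13 over P2 to P4 (SE, limma adjusted p = 6.44e-13). It was −1.68 ± 0.22 at P2 (adjusted p = 2e-04), −2.32 ± 0.22 at P3 (adjusted p = 1.33e-07) and −2.35 ± 0.22 at P4 (adjusted p = 8.32e-08). All 9 WT O2 mice lay above all WT air mice of P2 to P4, as for 0.726% of all genes, while KO O2 mice overlapped KO air mice at P2 and P3. At P4 all KO O2 mice lay above all KO air mice (6.43 or higher, against 6.28 or lower), as for 24.4% of all genes. The call at that age in KO was fragile, as given above. The other 5 members gave no such difference past the threshold.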

How the results depend on the processing

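Gpx2 kept its side of the threshold in 313 of 315 combinations of contrast and alternative and in 297 of 300 with 1 array left out; among these, values not called changed sign in 6 and 8, and no called value did. The 5 losses were KO minus WT in air at P2 (adjusted p = 0.167) and O2 minus air in KO at P4 (0.0583) with only the arrays of the contrast, and this one also with 3 arrays left out in turn (lowest 0.26). Of the other members' 315 combinations the side of the threshold stayed in 302 for Gpx1, 307 for Gpx3, 284 for Gpx4, 297 for Gpx7 and 287 for Gpx8, and of 300 with 1 array left out 290, 294, 276, 295 and 278. The 1 reversal was Gpx3 for O2 minus air in WT at P4, 0.49 with tissue scores as covariates (adjusted p = 0.0353), against −0.02; the cause was not tested. Gpx2 minus Gpx1, Gpx3, Gpx4, Gpx7 and Gpx8 for O2 minus air in WT without the arrays high in other tissues was 2.14, 2.21, 2.25, 2.82 and 2.40, no longer past the threshold (exact permutation adjusted p = 0.139), since so few arrays allow no p below 0.111. Gpx2 minus Gpx8 for O2 minus air in KO ran from −0.34 to −0.24 with 1 array left out, past the threshold at the low end.

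Counts of genes called moved more, and the cause was not tested. For the difference between genotypes in the O2 response the count was 217, against 442 after cyclic loess, 985 with array weights, 26 without arrays high in other tissues (ages left) and 152 to 691 with 1 array left out (691 without KO air P2 replicate 2). For the difference in the age change it was 5, against 36 after loess, 1054 with array weights, 3 with the mean of probe sets, 112 with tissue scores, 22 without arrays high in other tissues and 1 to 42 with 1 array left out. KO minus WT gave 2270 under O2, against 4530 with array weights, and 5271 in air, against 3113 with tissue scores and 2838 without arrays high in other tissues (ages left). O2 minus air gave 3788 in KO, against 2505 with tissue scores, and 4356 in WT, against 2364 without such arrays (ages left). P4 minus P1 in WT gave 4083, against 6381 with array weights and 2388 without such arrays, and P4 minus P2 in WT O2 3926, against 1456 without them. After loess the share called higher was 42.3% for the response difference (57.1% as deposited) and 69.4% for the age difference (40.0%). Every probe set on its own gave 28.9% called for KO minus WT in air and 1.02% for the response difference.

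With the replicate number as a block Gpx2 was −3.16 for KO minus WT under O2 (adjusted p = 9.28e-22), the counts were 5278, 2343, 4398, 3850 and 230 for the 5 leading contrasts, and no call of Gpx2 changed. Deviations of same-numbered arrays had a median r of 0.01 over 273 pairs, 77 of them over 0.1, and 14 of 42 arrays were nearest to one of their own number, so the numbers are not taken to pair mice. Contrasts that lost every array of a group without the arrays high in other tissues were not run.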
